A study of Homo sapiens with 4 samples.

Results

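The replication-dependent histone genes are the genes that supply a cell with new histone protein while it copies its DNA. They were taken by symbol as the probe sets annotated to exactly 1 gene that was H1-1 to H1-6, or an H2AC, H2BC, H3C or H4C gene with a number. This gave 45 genes of the 19775 that could be read in this way, with 51 probe sets. The linker histone class H1 held 6 genes, and the core classes held 9 for H2A, 14 for H2B, 7 for H3 and 9 for H4. HepG2, a human line from a liver tumour that keeps many features of hepatocytes, was deprived of serum (for 24 h in the design text, overnight in the labels' protocols). The cells then received 200 ng/ml APRIL, a secreted protein of the tumour necrosis factor family. Total RNA of 1 array each was measured before treatment (0 h) and after 2, 6 and 12 h, on the U133 Plus 2.0 array. The 0 h array was untreated, and no untreated array of a later time was used here, so time in culture and treatment cannot be told apart.

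Histones are the proteins around which DNA is wound: H2A, H2B, H3 and H4 form the core particle, and H1 binds the DNA between particles. Each core histone of the replication-dependent kind is encoded by many near-identical genes. The replication-dependent genes lie mostly in clusters and are transcribed mainly in S phase. Most of their messages end in a stem-loop bound by the protein SLBP instead of a poly(A) tail, and they are destroyed when DNA synthesis stops. Some of the genes also give polyadenylated messages, which are known from cells that have left the cell cycle. Whether the labelling of the RNA began at poly(A) tails was not given in the sources used here.

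Each deposited value is on the log2 scale and relative to the median of its own probe set over the 4 arrays. A value of 1.44 therefore stands for a signal 1.44 log2 units above that median, and no expression level is left, so abundance could not be compared between genes and a dim probe set could not be told from a bright one. A difference is the log2 value on one array minus that on another. Each time has a single array, so no difference could be tested or given an error, and each compares 2 arrays. The 3 comparisons with 0 h share the 0 h array. As a yardstick, the 1st and 99th percentiles of all genes were -0.48 and 0.45 at 2 h, -0.69 and 0.61 at 6 h, and -0.99 and 0.98 at 12 h.

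Of the 45 genes, 39 were read by 1 probe set and 6 by 2. All 19775 genes were read by 41097 probe sets, and a median over several probe sets is drawn towards the middle. The spread of all genes, and their shares past a limit, can therefore be narrower than for genes read by 1 probe set. The suffixes _x_at and _s_at mark probe sets that may bind transcripts of more than 1 gene. They made up 13 of the 51 and were the only reading of 10 genes. H2AC5P and H4C10P are annotated as pseudogenes, and 43 genes as protein coding. The HepG2 label could not be checked by marker levels in these centred values.

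As a group the histone genes lay slightly below the 0 h array and were far apart among themselves. Their median difference was -0.035 at 2 h, -0.17 at 6 h and -0.070 at 12 h, beside 0.016, 0.047 and 0.010 for all genes. The number below 0 was 25 of 45 at 2 h, against 45.9% of all genes, 29 at 6 h (39.7%) and 29 at 12 h (47.7%). At all 3 times 19 of the 45 were below 0, against 16.8% of all genes, and 10 were above 0 at all 3, against 26.5% of all genes. The 0 h array held the highest of the 4 values for 20 genes (44.4%), a place that 17.6% of all genes had. Within 0.5 of the 0 h array at all 3 times were 28 of the 45, against 85% of all genes. A range of 1 or more over the 4 arrays was found in 5, against 3.26%.

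The genes at or past 2-fold (a log2 difference of 1) were all on the lower side. They were 1 of 45 at 2 h, against 0.0101% of all genes, 3 at 6 h (0.283%) and 4 at 12 h (0.986%). Counted by probe set, 3 of the 51 were past 2-fold lower at 6 h and 4 at 12 h. The shares of all 54675 probe sets, with or without a symbol, were larger than those of genes, at 1.45% and 1.7%. No histone gene was 2-fold higher at any of the 3 times, beside 0.0354%, 0.101% and 0.946% of all genes. Between them these calls concern 5 genes of 4 classes: H1-4, H1-2, H2BC4, H3C2 and H4C11. At or below the 1st percentile of all genes were 3 of the 45 at 2 h, 5 at 6 h and 4 at 12 h, and at or above the 99th percentile 2 at 2 h and none later. At 2 h these were H3C2, H1-4 and H2AC4 on the low side and H4C9 and H2BC11 on the high side.

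**Figure D1:**
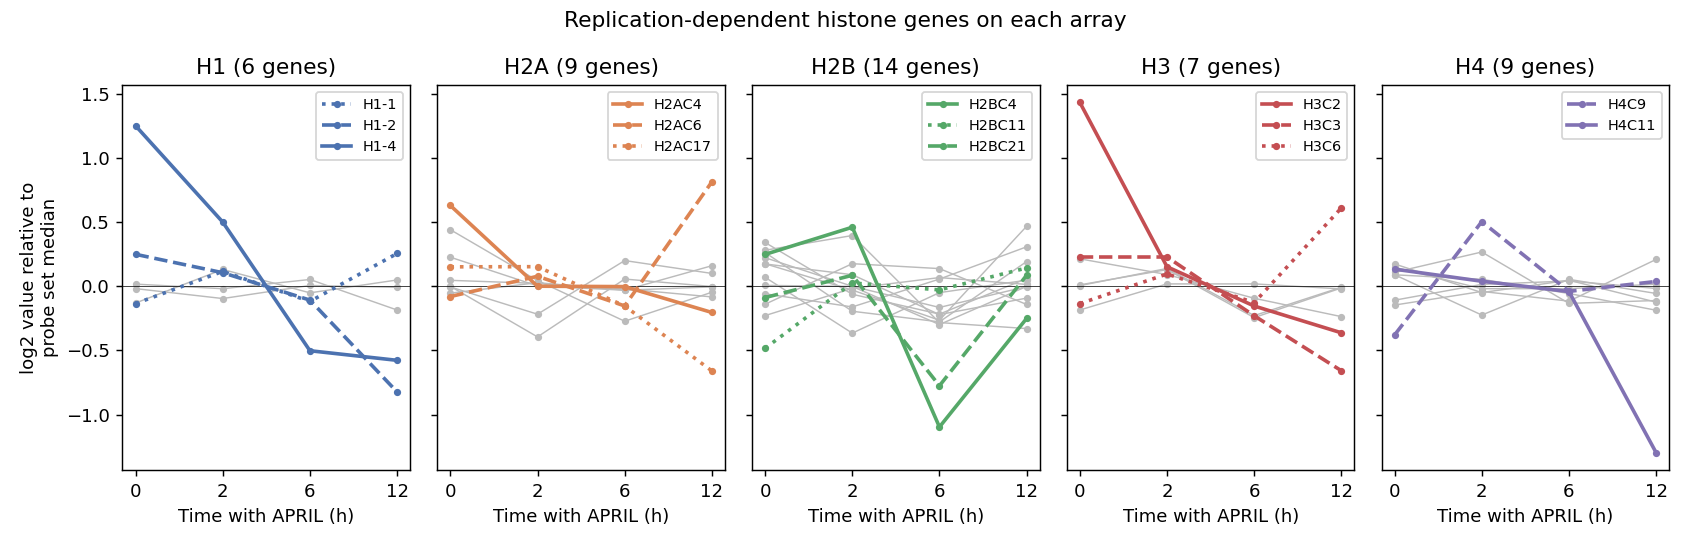
Log2 value of each histone gene relative to the median of its probe set (vertical axis) on the 0, 2, 6 and 12 h arrays (horizontal axis, evenly spaced, not to scale in time), 1 panel per class and 1 line per gene, with some genes coloured and named. H3C2 and H1-4 start at 1.44 and 1.25 at 0 h and are lower on every later array, H2BC4 and H2BC21 dip at 6 h, and H4C11 is low on the 12 h array alone.

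H3C2, which encodes a core histone H3, had the largest difference at 2 h. The 0, 2, 6 and 12 h arrays gave 1.44, 0.15, -0.15 and -0.36 in turn. The 0 h array thus stood apart from the other 3, over which the value still went down, by smaller steps. The difference from 0 h was -1.28 at 2 h (2.43-fold lower), the lowest of all 19775 genes, and -1.59 at 6 h and -1.80 at 12 h. It rests on 1 probe set, whose name ends in _s_at.

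H1-4, a linker histone gene, followed a similar course with a slower start. Its values in the same order were 1.25, 0.50, -0.50 and -0.58. The differences of H1-4 from 0 h were -0.75, -1.76 and -1.83, the last being 3.56-fold lower. At 6 h it held the second lowest place of all genes. H1-2, another linker histone gene, was at 0.25, 0.11, -0.11 and -0.82 on the 4 arrays. Only its 12 h value was far from the rest, with a difference of -1.07 from 0 h. Each of these H1 genes has 1 probe set, whose name does not end in _x_at or _s_at.

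H4C11, which encodes histone H4, was low on the 12 h array alone. Its values were 0.13, 0.040, -0.040 and -1.30, and the 12 h difference from 0 h was -1.43 (2.70-fold lower). From 6 h to 12 h the difference was -1.26, the only histone gene past 2-fold lower over this step (0.885% of all genes were). Its single probe set ends in _x_at.

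H2BC4, which encodes histone H2B, had its low value on the 6 h array. Its values, from the 0 h to the 12 h array, were 0.25, 0.46, -1.10 and -0.25. The difference from 0 h was -1.35 at 6 h (2.54-fold lower) but -0.50 at 12 h. From 2 h to 6 h it was -1.56, and H1-4, at -1.004, was the other histone gene past 2-fold lower over that step, where 0.329% of all genes were.

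The stretches before the annotated starts of 5 genes are shown because these genes carry the differences above, with H2AC6 added as the neighbour of H2BC4. The sequences are RefSeq's, build GRCh38.p14, 140 bases 5′ to 3′ on the strand of the gene and ending at the base before the start. Capitals mark the TATA box motif TATAAA, the motif known as the CCAAT box, and the octamer ATTTGCAT, each on either strand. H3C2 lies at chr6:26032100-26032239 on the minus strand, H1-4 at chr6:26156189-26156328 on the plus strand and H4C11 at chr6:27823952-27824091 on the plus strand. H2BC4 lies at chr6:26123927-26124066 on the minus strand and H2AC6 at chr6:26124032-26124171 on the plus strand.
H3C2: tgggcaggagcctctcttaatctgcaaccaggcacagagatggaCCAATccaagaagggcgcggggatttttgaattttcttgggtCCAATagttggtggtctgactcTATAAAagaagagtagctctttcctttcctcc
H1-4: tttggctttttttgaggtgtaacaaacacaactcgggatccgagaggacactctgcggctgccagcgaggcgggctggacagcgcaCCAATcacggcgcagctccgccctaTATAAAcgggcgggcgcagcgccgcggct
H4C11: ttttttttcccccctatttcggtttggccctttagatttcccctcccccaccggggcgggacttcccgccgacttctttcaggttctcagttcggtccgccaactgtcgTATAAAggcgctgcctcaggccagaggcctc
H2BC4: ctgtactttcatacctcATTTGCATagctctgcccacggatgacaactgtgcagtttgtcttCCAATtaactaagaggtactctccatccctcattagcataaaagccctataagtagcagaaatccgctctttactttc
H2AC6: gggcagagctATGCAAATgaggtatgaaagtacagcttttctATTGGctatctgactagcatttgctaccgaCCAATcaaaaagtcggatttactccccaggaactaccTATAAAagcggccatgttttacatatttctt

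The promoter windows, 250 bases before to 50 after the start, were held in the table for 40 of the 45 genes, 38 of them on chromosome 6 and 2 on chromosome 1. TATAAA, the core of the TATA box, was present in 27 of the 40 (67.5%), against 12% of 27305 promoters of all genes. In H2AC8, H2BC4, H2BC6, H2BC14, H2BC17 and H3C6 the only match lay 157 to 220 bases before the start. In the other genes with a match the nearest lay 27 to 42 bases before it. The count is therefore of matches anywhere in the window. CCAAT, read by the factor NF-Y, was in 35 of 40 (87.5%), against 35.7%, including all 6 H1, 8 H2A, 13 H2B and 6 H3 promoters but 2 of the 7 H4 promoters. The octamer ATTTGCAT, read by POU factors such as POU2F1, was in 16 of 40 (40%), against 1.8% of all promoters. It lay in 10 of 13 H2B and 6 of 8 H2A promoters and in no H1, H3 or H4 promoter of this set. The motifs were searched on both strands, and the windows of neighbouring H2A and H2B genes overlap, so a motif between them is counted for both. Of the 5 genes past 2-fold lower, 4 held TATAAA, 4 held CCAAT and 1 held the octamer, beside 23, 31 and 15 of the other 35. H1-2, whose stretch is not shown, held no TATAAA. The nearest TATAAA of H3C2, H1-4 and H4C11 lay 32, 29 and 31 bases before the start. That of H2BC4 lay 220 bases before, in the stretch shared with H2AC6, whose own match lay 31 bases before its start. These matches describe the letters in the windows and show no binding.

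The class medians are drawn in the plot by class. The H1 median was -0.057 at 2 h, 0.021 at 6 h and -0.096 at 12 h, so its members past 2-fold did not represent the class. For H2A the median was -0.21, -0.073 and -0.13 at the 3 times. For H2B it was -0.046, -0.39 and -0.015, with its low point on the 6 h array. The H3 median was 0.12 at 2 h, -0.26 at 6 h and -0.024 at 12 h. H4 was at -0.035, -0.13 and -0.15. No test of a difference between classes was possible.

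**Figure D2:**
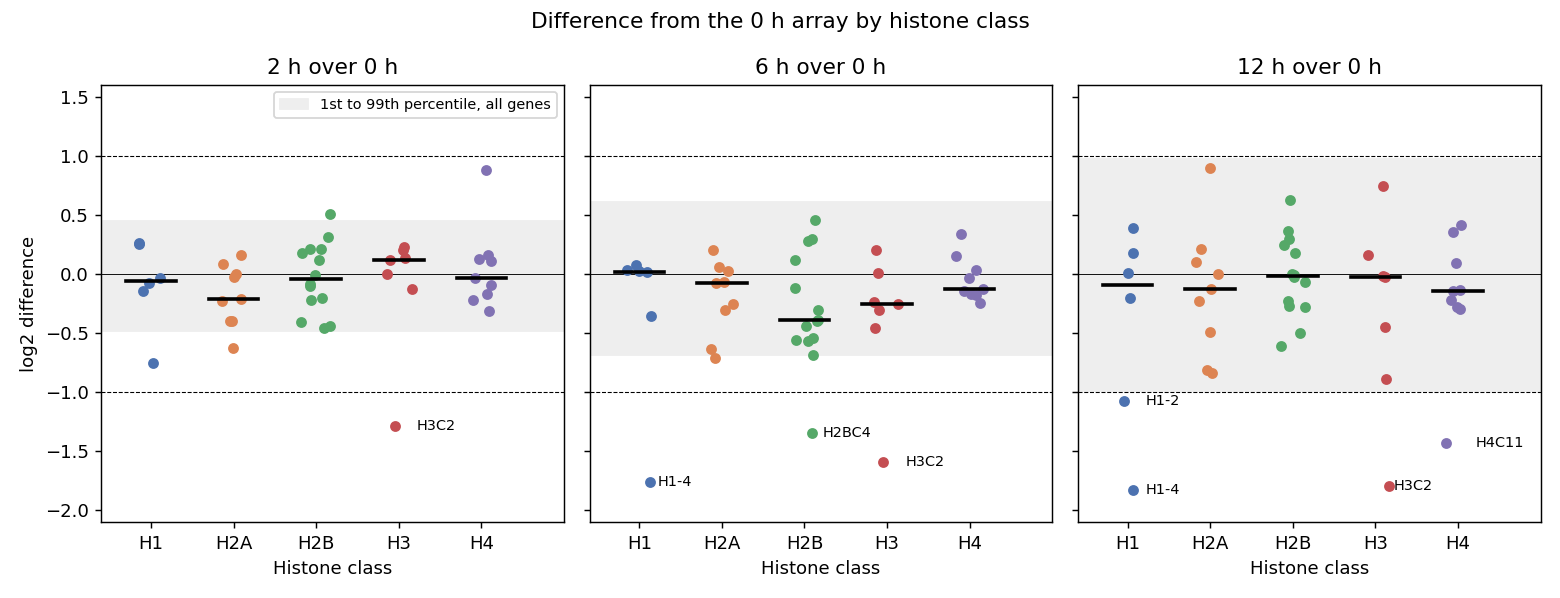
Log2 difference from the 0 h array (vertical axis) for each histone gene by class (horizontal axis), 1 panel per time. Points are genes, thick bars class medians, the grey band the 1st to 99th percentile of all 19775 genes, and dashed lines 2-fold. The 6 h panel has the lowest H2B median (-0.39), and the points below the lower dashed line are H3C2, H1-4, H2BC4, H1-2 and H4C11.

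Among the H1 genes apart from H1-4 and H1-2, differences were small. H1-5 was highest at 2 h and 6 h, at 0.26 and 0.079, and H1-1 at 12 h, at 0.39. H1-3 was at -0.036, 0.036 and -0.20. H1-6, a testis-specific linker histone, had probe sets of opposite sign at all 3 times, from -0.28 to 0.12 at 2 h. The class thus held 2 genes well below 0 h at 12 h beside 4 between -0.20 and 0.39.

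Among the H2A genes, H2AC4 was lowest at 2 h and at 12 h. It was at 0.63, 0.0016, -0.0016 and -0.20 on the 4 arrays. As with H3C2, the 0 h array was high, and the 3 later ones differed from it by -0.63, -0.63 and -0.83. H2AC14 was lowest at 6 h, at -0.71, and H2AC17 was at -0.81 at 12 h. H2AC25 was highest at 6 h, at 0.21, but its probe sets disagreed there (-0.043 and 0.45). H2AC6 was highest at 2 h, at 0.16, and at 12 h. Its values were -0.079, 0.079, -0.15 and 0.82, so the 12 h array alone was high, with a difference of 0.89 from 0 h. Its single probe set ends in _s_at.

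With all probe sets used, H2B was the class with the lowest median at 6 h. The 6 h array held the lowest value of 8 of its 14 genes (57.1%), against 18.9% of all genes. After H2BC4 came H2BC21 at -0.69, H2BC14 at -0.56, H2BC9 at -0.56 and H2BC17 at -0.54. From 6 h to 12 h 11 of the 14 were above 0, against 45.1% of all genes. H2BC11 stood on the other side, highest at all 3 times with differences of 0.51, 0.46 and 0.63, because its 0 h value of -0.48 was below its later values of 0.027, -0.027 and 0.14. The lowest H2B gene was H2BC17 at 2 h (-0.46) and H2BC14 at 12 h (-0.61). The dip was smaller without the _x_at and _s_at probe sets. Of the 9 H2B genes left, 3 are lowest at 6 h and 6 are above 0 from 6 h to 12 h. The H2B median at 6 h is then -0.12, and the lowest class median is that of H3, at -0.23.

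Among the H3 genes, H3C3 was next to H3C2 in size at 12 h. It was at 0.23 at 0 h and 2 h, -0.23 at 6 h and -0.66 at 12 h, a difference of -0.89. H3C11 was highest at 6 h, at 0.20. H3C6 was highest at 2 h (0.23) and at 12 h (0.75), but its probe sets were far apart at 12 h, at 0.18 and 1.31 (SD 0.80). The second was the only histone probe set past 2-fold higher at any time.

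Among the H4 genes, H4C9 was highest at all 3 times, and its largest difference was the earliest. It was at -0.38, 0.51, -0.039 and 0.039 on the 4 arrays. The difference of 0.88 at 2 h was the eighth highest of all genes and was down to 0.34 at 6 h and 0.42 at 12 h. H4C9 lies on the plus strand within the annotated bounds of H2BC12, which is on the minus strand and was at -0.10, 0.11 and 0.37. H4C4 was lowest at 2 h (-0.31) and H4C5 at 6 h (-0.24). H4C8 had probe sets of opposite sign at 2 h and 6 h (-0.40 and 0.46 at 6 h), and both were above 0 at 12 h, at 0.34 and 0.37.

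The spike-in RNAs were lower on the 12 h array, while the median of all genes there was 0.010. The 18 probe sets for bacterial RNAs added as controls differed from 0 h by a median of -0.35 on the 12 h array (from -0.47 to -0.21), after 0.012 and 0.055 on the 2 and 6 h arrays. Centred on them, the median of the histone genes at 12 h became 0.28. H1-4, H3C2 and H4C11 were then past 2-fold lower, and H2AC6 (1.25) and H3C6 (1.099) past 2-fold higher. The value of H3C6 is the median of probe sets that were far apart. This centring raises the 12 h difference of every gene alike, and the share of all genes past 2-fold under it was not computed. The directions at 12 h are therefore relative to the typical gene of the array, and the part of the spike-ins' shift in them was not tested.

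Further probe sets were annotated to several histone genes at once and belong to no single gene. There were 20 of them, each naming from 2 to 14 genes, and 18 named genes of 1 class. Their medians were -0.069 at 2 h, -0.38 at 6 h and -0.38 at 12 h. At 6 h 18 of the 20 were below 0, against 44.7% of all probe sets, and at 12 h 15 were (49.9%). At or past 2-fold lower were 2 at 6 h (1.45% of all probe sets) and 2 at 12 h (1.7%).

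The shared H2B probe sets, like the single H2B genes, had their lowest median at 6 h, but they remained lower at 12 h, where the single genes' median was -0.015. All 5 were lower than 0 h at 6 h, with a median of -0.87 and a range from -1.12 to -0.43, and all 5 at 12 h, with a median of -0.59. The 6 h array held the lowest value in 4 of the 5. The 6 shared H4 probe sets had medians of -0.28 at 6 h and -0.44 at 12 h. One of them was at -1.51 at 12 h and at -0.14 and -0.34 before, a course close to that of H4C11, whose own probe set can also match other copies. The 2 shared H3 probe sets, each naming 10 genes, lay at -0.060 and 0.46 at 6 h and at -0.22 and 0.061 at 12 h. Neither had the drop of H3C2. The 5 shared H2A probe sets had a median of -0.077 at 6 h, with 4 below 0, and of 0.23 at 12 h, with 2 below 0. The 2 that mix H2A and H3 genes were at -0.76 and -0.80 at 6 h and at -0.52 and -0.44 at 12 h. Because these probe sets and those of single genes can read the same messages, they are not separate evidence.

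**Figure D3:**
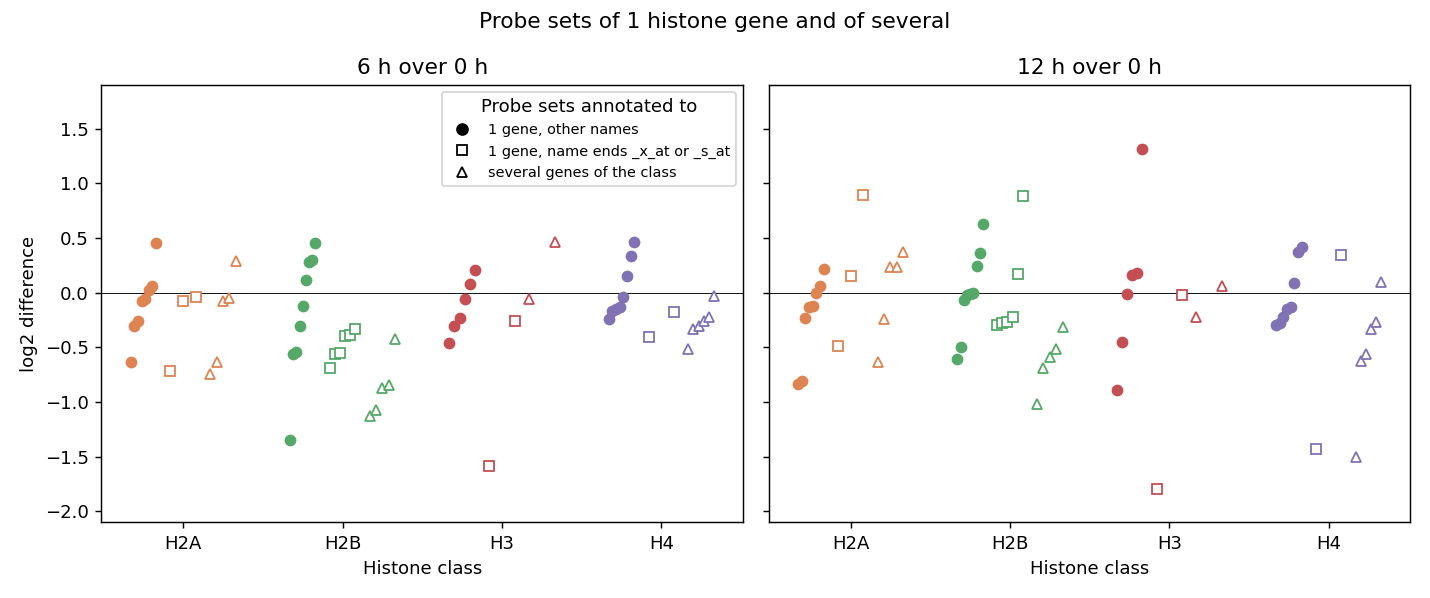
Log2 difference from the 0 h array (vertical axis) at 6 h and 12 h for probe sets of the 4 core classes (horizontal axis). Filled circles are probe sets annotated to 1 gene, open squares those of 1 gene with names ending in _x_at or _s_at, and triangles those annotated to several genes of the class, while the 2 that mix H2A and H3 are not drawn. All 5 H2B triangles are below 0 at both times, whereas the filled H2B circles lie on both sides.

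Some H2A and H2B genes are known to give polyadenylated messages besides the stem-loop form, namely H2AC6, H2BC4, H2BC5, H2BC12 and H2BC21. The list comes from background knowledge and not from the deposited data, and H2AC6, H2BC5 and H2BC21 are read only by _x_at or _s_at probe sets. The genes were set side by side after their values had been seen, so the grouping supports nothing by itself. From 6 h to 12 h all 5 were higher, H2AC6 by 0.97, H2BC21 by 0.86, H2BC4 by 0.85, H2BC5 by 0.73 and H2BC12 by 0.25. Their median was 0.85, beside 0.061 for the other 18 H2A and H2B genes, of which 10 were above 0. Of all genes 45.1% were above 0 over this step. H2BC21 was at -0.087, 0.087, -0.78 and 0.087 on the 4 arrays, so the 6 h array alone stood apart. H2BC5 had probe sets that disagreed at 12 h over 0 h (-0.30 and 0.88).

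**Figure D4:**
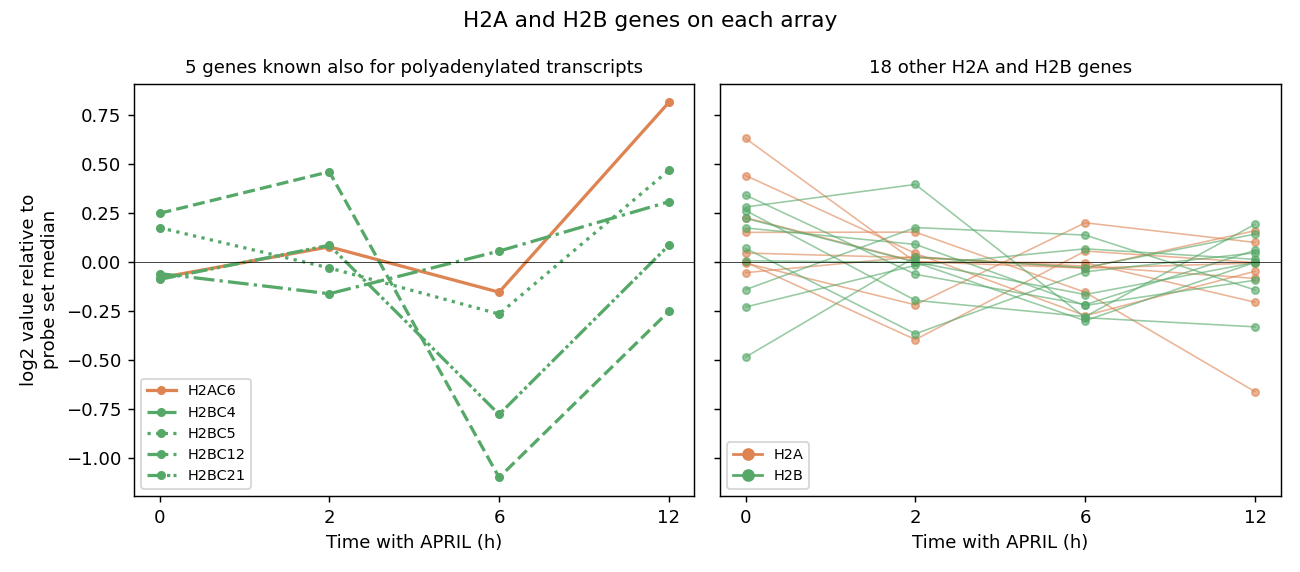
Log2 value relative to the median of the probe set (vertical axis) on the 4 arrays (horizontal axis, evenly spaced), for the 5 genes known also for polyadenylated transcripts (left) and the other 18 H2A and H2B genes (right). Each of the 5 lines on the left goes up from 6 h to 12 h, by 0.25 to 0.97, while the lines on the right go either way. The 5 genes were grouped from background knowledge after their values had been seen, so the contrast supports nothing by itself.

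Histone genes that stand head to head share the DNA between their starts. Among the genes read here, 5 pairs had opposite strands and starts less than 1000 bases apart. H2BC4 and H2AC6, with 246 bases between their starts, differed most. They were alike at 2 h (0.21 and 0.16), but at 6 h H2BC4 was at -1.35 and H2AC6 at -0.073, and at 12 h they were at -0.50 and 0.89. H2AC14 and H2BC14, 245 bases apart, were at -0.40 and 0.12 at 2 h, and both were lower at 6 h (-0.71 and -0.56) and at 12 h (-0.49 and -0.61). H2AC17 and H2BC17, 240 bases apart, were at 0.0012 and -0.46 at 2 h, -0.31 and -0.54 at 6 h, and -0.81 and -0.070 at 12 h. The pair H2AC15 and H2BC15 and the pair H3C7 and H2BC9 differed by no more than 0.28 at any of the 3 times.

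The genes that work with these histones were read from lists. The S-phase list, enzymes and factors of DNA replication, had a median of -0.98 at 12 h, with 35 of 35 genes below 0 and 16 past 2-fold lower. Of all genes 47.7% were below 0 and 0.986% past 2-fold lower. PCNA, the sliding clamp of the replication fork, was at -1.27. UHRF1 at -2.11 and RRM2 at -1.91 were the lowest, and E2F1 at -0.038 and POLA2 at -0.045 were nearest to 0. In the same comparison the histone genes had a median of -0.070 with 29 of 45 below 0. At 2 h the S-phase list was also the lower one, with a median of -0.15 and 31 of 35 below 0, beside -0.035 and 25 of 45. Of all genes 45.9% were below 0 at 2 h. The histone genes were instead the lower group at 6 h, where their median was -0.17 and that of the S-phase list -0.012. The difference between the lists was not tested.

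Of 29 genes for the transcription and end processing of histone messages, none was past 2-fold at any of the 3 times. Of all genes at most 0.986% were past 2-fold lower and 0.946% higher at any of them, so none is near that share in a list of this size. The median at 12 h was -0.039. SLBP was at 0.19, 0.13, -0.13 and -0.34 on the 4 arrays, a 12 h difference of -0.53. NPAT, the coactivator of histone genes, was at -0.20, -0.12 and -0.077, and CASP8AP2, another protein of the histone locus body, at -0.15, -0.094 and -0.55. CCNE2, a cyclin of S-phase entry, was lowest at 12 h (-0.98, SD 0.74 over 2 probe sets), followed by the cap-binding subunit NCBP2 (-0.66). HINFP, a factor for H4 gene transcription, was highest (0.91), followed by FIP1L1 (0.57). HINFP was at -0.36, -0.13, 0.13 and 0.54 on the 4 arrays, higher on each later one.

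The list for translation and decay of histone messages had a median of 0.18 at 6 h, with 16 of 19 genes above 0. At 12 h the median was 0.11, with 11 above 0. Below 0 were 3 at 6 h, against 39.7% of all genes, and 8 at 12 h, against 47.7%. None was past 2-fold from 0 h, where at most 0.986% of all genes were lower and 0.946% higher at any of the 3 times. UPF2, a partner of the decay helicase UPF1, was highest at 12 h (0.87), after 0.75 at 6 h, and the exonuclease XRN1 was at 0.62. UPF1 itself was at 0.28 at 6 h and 0.27 at 12 h, but its 2 probe sets were far apart (SD 0.54 and 0.61). LSM5 (-0.47) and LSM4 (-0.39), subunits of the LSM ring, were lowest at 12 h.

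Of the 30 histone chaperones and assembly factors none was past 2-fold from 0 h at any of the 3 times. At most 0.986% of all genes were past 2-fold lower and 0.946% higher at any of them. At 12 h 16 of them were below 0, against 47.7% of all genes. ASF1B was lowest at -0.90, followed by ANP32E at -0.86, and the subunits CHAF1A and CHAF1B of the chaperone that deposits H3 and H4 behind the fork were at -0.52 and -0.49. NASP, which holds soluble H3 and H4, was at -0.78 (SD 1.04 over 3 probe sets). HAT1, which acetylates new H4, was at -0.79. From 6 h to 12 h HAT1 was at -1.17, the only gene of the list past 2-fold over that step, where 0.885% of all genes were past 2-fold lower. CABIN1, of the HIRA complex, was highest at 0.78, followed by DAXX at 0.29.

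The replication-independent variants, which are made outside S phase too, had a median of -0.067 at 12 h over 14 genes. Below 0 were 10, against 47.7% of all genes. None was past 2-fold, beside 0.986% of all genes lower and 0.946% higher. H3-3A, an H3.3 gene, was at 0.19, 0.19, -0.33 and -0.19, with differences of -0.53 at 6 h and -0.38 at 12 h, the lowest of the list at 12 h, followed by H1-8 at -0.26. H2AZ1 was at -0.019 and H2AX at -0.13 at 12 h. CENPA, the centromeric H3, was highest at 0.36, followed by H2AP at 0.29.

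**Figure D5:**
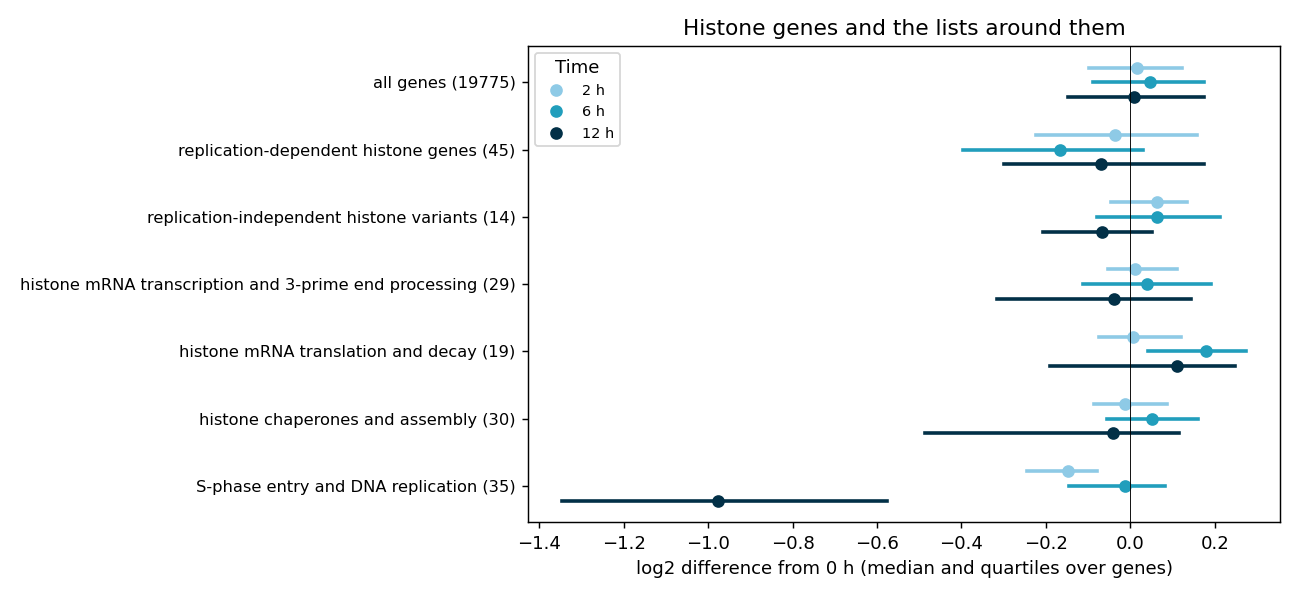
Median (point) and quartiles (bar) of the log2 difference from 0 h (horizontal axis) at 2, 6 and 12 h, for all genes, the 45 histone genes and 5 lists of genes around them (vertical axis, number of genes in brackets). At 12 h the S-phase list, at -0.98, is far below the histone genes, at -0.070.

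Markers of other cell types gave no value past 2-fold from 0 h, while PDGFRB was at 1.39 from 6 h to 12 h. Of 15 genes of fibroblasts, endothelium and leukocytes, 8 were above and 7 below 0 at 12 h (47.7% of all genes were below). Their median was 0.026, from PECAM1 at -0.30 to PDGFRB at 0.89. Their levels are not in the centred values. Of 14 hepatocyte genes the median was -0.025 at 12 h. APOB (-1.08) and FOXA1 (-0.82) were lowest, and TTR (0.46) and FGB (0.45) highest. The 2 probe sets of APOB were far apart at 12 h (SD 1.40), and so were the 2 of FOXA1 (SD 1.07).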

How the data were processed

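The authors deposited log2 values for 54675 probe sets on 4 arrays, and per the submitters' processing notes RMA (version not given in the sources used here) produced them. Each probe set was centred on its median over the arrays (within 1e-06). Base 2 and the direction (higher means more transcript) were taken from how RMA works and are not stated. Probe sets with 1 symbol in the platform annotation were used (41097), with symbols updated through the gene identifier to RefSeq (GRCh38.p14). Arrays were subtracted probe set by probe set, and genes with several took the median, with Python 3.11.15 and pandas 2.3.3. The alternatives concerned centring, probe-set choice, reference array and threshold. The computation was checked on simulated data. Genes past 2-fold, the highest and lowest of each class at each time, and the 2 highest and 2 lowest of each list at 12 h were named. PCNA, SLBP, NPAT and some chaperones and variants were named in any case, and NASP, HAT1, UPF1, the genes grouped for polyadenylated messages and further members of the classes were named after their values were seen. The members, lists and comparisons were chosen with earlier results of these data known. Genes held by several lists are counted in each. The number of arrays limits the precision.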

Additional observations from a re-analysis of the deposited data

How the results depend on the processing

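With 1 array per time no replicate could be left out. No paired analysis was possible because each time has 1 array. A count is called changed past 1.5 times and a median past 0.1. Of 72 recomputed counts and medians of all histone genes, 55 were unchanged by this measure. Some of the 55 could not change. With 0 genes past 2-fold higher, a 3-fold threshold or leaving out genes can only give 0 again. The array medians lay from -0.0050 to 0.011, so centring on them could move no median past 0.1. The 55 is therefore not a count of real checks. Without probe sets ending in _x_at or _s_at, the genes past 2-fold lower were 0 at 2 h and 2 at 12 h in place of 1 and 4, the median at 6 h was -0.067, and the H2B median at 2 h turned to 0.12. Fewer genes, 35, are read under it. With the mean of all 3 remaining arrays in place of 0 h, the lower calls were 0, 1 and 1. That mean takes in the other treated arrays, and the calls left were H2BC4 at 6 h and H4C11 at 12 h. Medians then turned to 0.15 for H1 and 0.065 for H2B at 2 h and to 0.085 for H2B at 12 h. Centring on the spike-ins, which raises every 12 h difference alike, gave 2 genes higher at 12 h and turned the medians there to 0.28 for all, 0.26 for H1, 0.22 for H2A, 0.34 for H2B, 0.33 for H3 and 0.21 for H4. At 1.5-fold the lower calls were 3, 6 and 8, with 1 higher at 2 h and 3 at 12 h. Of all 19775 genes 68, 324 and 731 were 1.5-fold lower at the 3 times, and 61 at 2 h and 881 at 12 h higher. At 3-fold the lower calls were 0 at 2 h and 2 at 12 h. For the other settings in this paragraph the share of all genes past the threshold was not computed. The widest-range probe set, or counting probe sets, gave 1 higher at 12 h, that of H3C6. The mean over probe sets equals the median where a gene has at most 2, as all members do, so it could change nothing and is not counted. Centring on the array median and leaving out the pseudogenes (added after seeing the data) changed none of these results by this measure.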
